A study of Mus musculus with 12 samples.

Results

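The genes that mark the mouse liver against 3 other metabolic organs were described from RNA sequencing of 12 libraries. A gene was counted as expressed in liver when it reached at least 10 FPKM (fragments mapped to a transcript, scaled for its length and for library size) in all 3 liver libraries, which 3282 of 22276 genes did. 3278 of these had a value in all 12 libraries, and their mean log2(FPKM + 0.1) in liver was compared with that in WAT (white fat), BAT (brown fat) and quadriceps muscle. All libraries came from male C57BL/6J mice aged 17 weeks. Each organ was sequenced once in each of 3 feeding groups, which were mice on a normal chow diet given vehicle (NCD-veh), mice on a high-fat diet from the age of 8 weeks given vehicle (HFD-veh), and mice on the same high-fat diet given narciclasine, a natural compound from plants, from the age of 10 weeks (HFD-ncls). Vehicle or compound was given weekly by mouth. Chow-fed mice given narciclasine were not analysed here. Wherever 3 values of an organ follow each other below, they are in this order of groups. The number of mice behind a library was not given in the sources used here. The 3 libraries of an organ therefore served as its replicates although they came from 3 feeding groups, so their spread holds diet and treatment as well, and the p-values measure only the spread between these samples. Differences between feeding groups within liver rest on 1 library each and were not tested.

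The liver makes most proteins of blood plasma, detoxifies ammonia in the urea cycle, forms bile acids from cholesterol, buffers blood glucose and oxidizes drugs and lipids with cytochrome P450 enzymes. Nearly all of this is done by hepatocytes, whose gene program is held by a small set of transcription factors, among them HNF4α, the FOXA factors and C/EBPα. Hepatocytes near the portal vein and those near the central vein divide the work between them, while Kupffer cells (resident macrophages), sinusoidal endothelium, stellate cells and bile duct cells make up the rest of the organ.

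The liver label held against its markers. All 11 tested hepatocyte markers were higher in liver than in each other organ, and their summed level was 34622, 32168 and 35466 FPKM over the 3 liver libraries. Albumin (Alb), the most familiar hepatocyte product, had no value in any liver library, and neither had Mup7, Mup10, Mup11, Mup14 and Gm2083, so these genes could not be placed. In the other organs Alb was listed at 4.79, 25.7 and 94.1 FPKM in WAT and at 0.5, 224 and 0.329 in muscle. The HFD-veh muscle and HFD-ncls WAT libraries thus held liver transcripts at a low level, and HFD-veh WAT at a lower one. The HFD-veh liver library held muscle transcripts. There 9 of 9 skeletal muscle markers that could be compared were over 2-fold higher than in NCD-veh liver. The summed level of the muscle markers was 2.14, 71.6 and 3.12 FPKM across the liver libraries. Adipocyte markers summed to 8.23, 20.003 and 13.1 FPKM. Depth in reads was not recoverable, but ratios of the lowest values put the 12 libraries between 0.787 and 1.12 times the depth of NCD-veh liver.

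As deposited, fewer genes were higher in liver than in WAT than was the case for BAT or muscle, an order that depended on scaling. Of 13648 genes tested with limma at an adjusted p below 0.05, 2212 (16.2%) were higher in liver than in WAT, 3984 (29.2%) higher than in BAT and 5487 (40.2%) higher than in muscle. The corresponding shares lower in liver were 66.3%, 38.2% and 34.9%. Rescaling each library by its median ratio moved the WAT comparison from 2212 higher and 9048 lower to 4236 higher and 5861 lower, and gave 4102 genes higher in liver than in BAT, so that WAT no longer had the fewest. The median tested gene as deposited stood at -1.0 (liver minus WAT, log2), beside -0.15 for BAT and 0.089 for muscle. Of all genes tested, 11.9% were higher in liver than in every other organ and 19.7% were lower than in every other organ. Among the 3278 expressed genes the counts were 1046 and 210, but these genes were selected on their liver level, so their count is a description only.

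450 expressed genes stood at least 10-fold above the mean of WAT, of BAT and of muscle and are called restricted here. They were chosen by that difference, so their folds, their share of FPKM and the p-values given for them below are descriptions. Over all tested genes 4.61% cleared the same limit. Without the HFD-veh muscle and HFD-ncls WAT libraries the limit was met by 453 genes, including all 450. The median restricted gene was 238-fold above its nearest organ, 303 were at least 100-fold and 63 at least 1000-fold above each organ on the log2(FPKM + 0.1) scale, which understates folds over very low levels. With both libraries left out these became 301-fold, 309 and 110 genes. HFD-veh WAT, which also held liver transcripts, stayed in. 190 restricted genes were below 1 FPKM in all 9 other libraries, 290 when only the other 7 were counted. The limit fell between Pdzk1 (9.86-fold over muscle), Hhex (9.85-fold over WAT) and Fads1 (9.71-fold over WAT) just outside and Gpld1 (10.1-fold over WAT), Ddah1 (10.3-fold over WAT) and Clcn2 (10.3-fold over BAT) just inside. The FPKM minimum fell between Sdcbp, Mvp and Tmem9b outside (9.99 FPKM for Tmem9b in its lowest liver library) and Esrra, Prnp and Rab21 inside (10.02 for Rab21).

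These 450 genes held 52.9%, 50.4% and 51.2% of the FPKM summed over genes with a value in all 12 libraries, in the 3 livers. Shares of FPKM here and below are of that sum. It leaves out Alb and several Mup genes, which had no liver value. In the 9 other libraries they held 0.108% to 0.692%, the highest being NCD-veh BAT, where Apoc1, the apolipoprotein C-I gene, alone stood at 1243 FPKM. Of restricted genes averaging 100 FPKM or more in liver, the median one was present in HFD-veh muscle at 0.638% and in HFD-ncls WAT at 0.305% of its liver level in the same feeding group. The next was HFD-veh WAT at 0.0915%, and the 6 remaining libraries lay at 0.0114% or below.

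**Figure D1:**
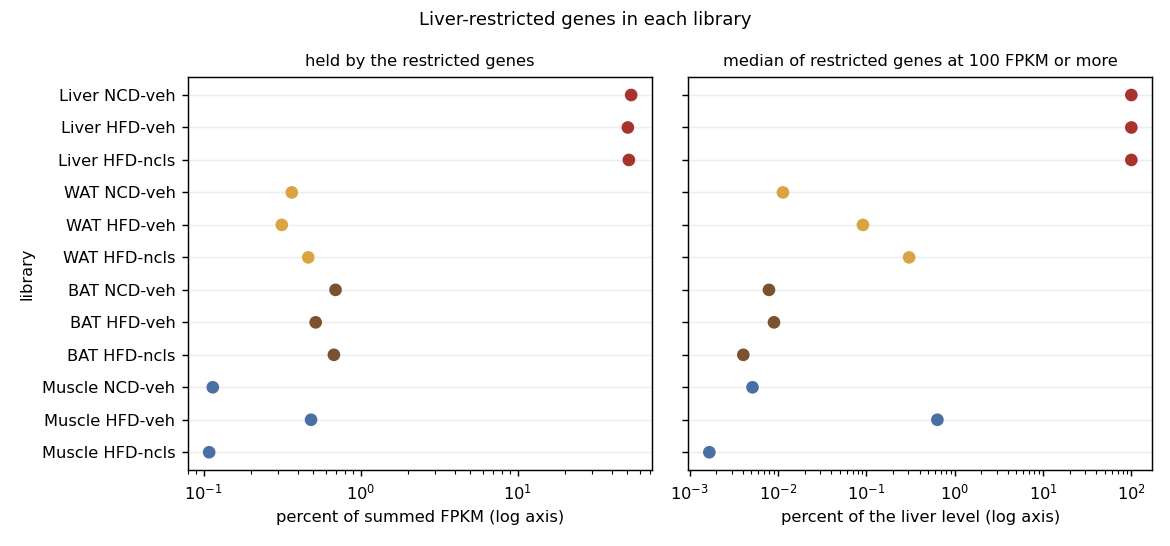
Share of summed FPKM held by the 450 restricted genes (left, percent, log axis) and median level of those with at least 100 FPKM in liver as a percentage of the liver level in the same feeding group (right, log axis), 1 point per library. The 3 liver libraries sit between 50.4% and 52.9% on the left, all others below 1%, and HFD-veh muscle is the highest other library on the right.

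Many restricted genes lay beside each other on the genome. Of 439 restricted genes with 1 position on mm9 in the GENCODE vM1 annotation, 184 (41.9%) had another restricted gene within 100 kb, against 11.7% of 2689 other expressed genes. They formed 67 runs, of which that with the most genes held 9 serpin genes, Serpina10 to Serpina4-ps1, at chr12:104854885-105324934. Others were the apolipoprotein genes Apoa1, Apoc3, Apoa4 and Apoa5 at chr9:46036663-46080002, the fibrinogen genes Fgg, Fga and Fgb at chr3:82811781-82853725, the fetuin and kininogen genes Ahsg, Fetub, Hrg and Kng1 at chr16:22892115-23082141 and 5 Cyp4a genes at chr4:114971651-115294207. Neighbours such as the Serpina1, Cyp4a, Ugt2b and Mup genes are related copies, some of them near-identical. The authors' counting can split reads between such copies, so their single values are uncertain. These neighbours are also not independent of each other.

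The promoters of 4 restricted genes are shown because they stand for 4 functions, clotting (Fga), drug oxidation (Cyp3a11), fatty acid binding (Fabp1) and the acute-phase response (Saa2), and hold letters searched for the factors of the hepatocyte program. Each is the 250 bases before the RefSeq transcript start on GRCm38.p6, 5′ to 3′ on the gene's strand, with matches in capitals. The letters searched on both strands were CAAAGTCCA for HNF4A, TTGCNNAA for C/EBP and TGTTTAC for FOXA, and TATAAA was searched on the sense strand for the TATA box.
Fga, chr3:83025903-83026152, plus strand: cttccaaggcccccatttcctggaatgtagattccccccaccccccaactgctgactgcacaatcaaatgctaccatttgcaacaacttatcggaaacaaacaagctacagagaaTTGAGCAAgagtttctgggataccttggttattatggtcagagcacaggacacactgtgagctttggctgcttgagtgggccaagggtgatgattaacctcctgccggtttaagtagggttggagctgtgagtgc
Cyp3a11, chr5:145879855-145880104, minus strand: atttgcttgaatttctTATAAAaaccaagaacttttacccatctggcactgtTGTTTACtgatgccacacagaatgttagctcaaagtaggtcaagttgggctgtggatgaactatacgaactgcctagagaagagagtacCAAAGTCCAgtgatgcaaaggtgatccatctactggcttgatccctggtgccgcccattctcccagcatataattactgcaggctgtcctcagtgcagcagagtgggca
Fabp1, chr6:71199629-71199878, plus strand: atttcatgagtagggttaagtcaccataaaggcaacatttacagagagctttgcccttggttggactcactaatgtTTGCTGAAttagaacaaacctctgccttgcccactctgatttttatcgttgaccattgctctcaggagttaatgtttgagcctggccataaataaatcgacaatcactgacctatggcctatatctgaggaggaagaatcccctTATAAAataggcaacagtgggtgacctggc
Saa2, chr7:46751583-46751832, plus strand: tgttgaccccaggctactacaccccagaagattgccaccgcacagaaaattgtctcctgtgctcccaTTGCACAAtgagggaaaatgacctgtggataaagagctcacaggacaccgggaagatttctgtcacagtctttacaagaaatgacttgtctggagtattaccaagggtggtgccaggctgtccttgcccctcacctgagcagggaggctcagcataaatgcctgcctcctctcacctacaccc
The capitals mark a C/EBP match on the reverse strand in Fga, HNF4A, FOXA and TATA letters in Cyp3a11, a C/EBP match and a TATA box in Fabp1 and a C/EBP match in Saa2. Over all 32851 mouse promoters of 300 bases given, 0.475% held the HNF4A letters, 10.8% those of C/EBP, 3.65% those of FOXA and 8.32% the TATA box. Promoters were matched for 350 of 450 restricted genes (77.8%), under the 80% needed, so a comparison of the restricted set with other genes is void and none is drawn.

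Plasma proteins supplied much of the restricted set. The function lists used here and below were chosen with earlier results of these data known. That choice favours high counts in liver, so their counts against the other organs are descriptions only. In the coagulation and fibrinolysis list 22 of 23 genes were higher in liver than in all 3 organs, against 11.9% of all genes, and 22 were restricted. The exception was Pros1, the protein S gene. The β chain of fibrinogen, the clot-forming protein, is encoded by Fgb and stood at 2206 FPKM (NCD-veh), 1546 (HFD-veh) and 1513 (HFD-ncls), while the other 9 libraries ran from 0 through a median of 0 to 8.01. Its difference to its nearest organ, WAT, was 10.89 ± 1.60 (SE, limma, adjusted p = 5.2e-05), and 11.90 without the HFD-ncls WAT and HFD-veh muscle libraries. Vtn, encoding the adhesive plasma protein vitronectin, was at 2248, 1228 and 1500.2 FPKM in the 3 livers and at 3.32 to 12.6 elsewhere. All 23 expressed genes of this list stayed within 2-fold over the 3 liver libraries, with a median of -0.51 between HFD-veh and NCD-veh and 0.027 between HFD-ncls and HFD-veh on the log2 scale.

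Plasma carriers and protease inhibitors reached higher levels still. 11 of 12 carrier genes and 17 of 18 inhibitor genes were above all 3 organs. The carriers held 6.57%, 4.87% and 5.08% of FPKM in the 3 livers and the inhibitors 8.33%, 6.94% and 7.73%. Between HFD-veh and NCD-veh liver 1 carrier was over 2-fold higher and 2 were lower. Of the inhibitors 0 were over 2-fold higher and 4 lower. The shares over all genes compared were 2.85% and 2.27%. Serpina1e, one of the α1-antitrypsin genes, stood at 10319 FPKM (NCD-veh), 5059.5 (HFD-veh) and 8052 (HFD-ncls), against a highest value elsewhere of 10.7 in HFD-veh muscle. Serpina1c, another of them, was nearly level at 6163, 6055 and 6387. Ahsg, which encodes the mineral carrier fetuin-A, was at 5575, 3776 and 4326 FPKM and 11.23 ± 1.67 above WAT (SE, limma, adjusted p = 5.8e-05). Not every carrier was restricted. Transferrin (Trf), the iron carrier, was at 7104, 4458 and 5112 FPKM in liver but also at 1204, 485 and 489.9 in WAT, so its smallest difference was 3.05 ± 0.61 (adjusted p = 0.00063), and Serpina3n at 631, 244 and 256 in liver against 222, 307 and 351 in WAT did not differ beyond its spread (limma, adjusted p = 0.67).

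Complement was divided between the organs. 16 of 24 genes of the list were higher in liver than in all 3 organs and 11 were restricted, among them C8a, C8b, C8g and C9 of the terminal pathway and the lectins Mbl1 and Mbl2. C8g stood at 327, 350.2 and 351 FPKM in liver and at 1.33 to 10.1 in the other libraries, with a difference to BAT, its nearest organ, of 5.18 ± 0.20 (SE, limma, adjusted p = 1.9e-09). C3, the central component, was at 2078 FPKM (NCD-veh), 868 (HFD-veh) and 955 (HFD-ncls) and at 414, 354 and 476 in WAT, a smallest difference of 1.54 ± 0.42 (adjusted p = 0.0049). Cfd, the adipocyte protease adipsin, was far lower in liver than in WAT, at 0.163, 10.2 and 5.71 against 8163, 653 and 753 FPKM, a log2 difference of -9.31 ± 1.25 (limma, adjusted p = 2.5e-05). C1qa, C1qb and C1qc, which macrophages make, were not restricted.

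Apolipoproteins, the protein part of plasma lipoproteins, were among the highest and steadiest transcripts of the liver. All 15 tested genes of the list were higher in liver than in all 3 organs and 14 were restricted. Together they held 11.9%, 12.9% and 13.6% of FPKM in the 3 liver libraries, the highest share of the function lists among genes with values, while Alb and several major urinary protein genes had no value to count, and their expressed genes differed by a median of 1.2-fold between the highest and lowest liver library. Apoa2, a main protein of high-density lipoprotein, had the highest mean level of all expressed genes at 15429.8 FPKM (NCD-veh), 16203 (HFD-veh) and 16882 (HFD-ncls). In the other organs it read 0.69, 8.1 and 38.4 in WAT, 2.1, 2.89 and 1.85 in BAT and 0.348, 117 and 0.112 in muscle. HFD-veh muscle and HFD-ncls WAT thus stood apart from the rest of their organs, with HFD-veh WAT between the other WAT libraries. All lay more than 100-fold below liver. The difference of Apoa2 to WAT was 11.33 ± 1.98 (SE, limma, adjusted p = 0.00022) over 12 libraries. It was 12.63 over 10, which still include HFD-veh WAT. Apoe, encoding apolipoprotein E, was the exception to restriction, being also expressed at 2520.1, 1115 and 1265 FPKM in WAT and 613, 422 and 808 in BAT. In liver it stood at 13714, 14289 and 14408 FPKM, 3.21 ± 0.45 above WAT (adjusted p = 3.7e-05). Apob, the backbone of very low-density lipoprotein, was at 287 FPKM (NCD-veh), 357 (HFD-veh) and 167 (HFD-ncls), a 2.14-fold lower level with narciclasine, and was the one gene of this list more than 2-fold apart in either within-liver comparison.

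The major urinary proteins, small pheromone carriers that male mice secrete from the liver, took 10.04%, 10.3% and 9.9% of liver FPKM. All 14 genes with values were restricted, and their median difference to the nearest organ, 11.50, was the highest of the 20 gene lists described here. Mup20, whose product is the pheromone darcin, stood at 6749 FPKM (NCD-veh), 4179.6 (HFD-veh) and 6161 (HFD-ncls). In the other organs it read 0, 2.72 and 7.8 in WAT, 0, 0 and 0.161 in BAT and 0.169, 16.6 and 0.166 in muscle. Its difference to WAT was 12.06 ± 1.68 (SE, limma, adjusted p = 3.3e-05). Expressed Mup genes kept within a median of 1.08-fold over the 3 liver libraries, the narrowest of these lists. The near-identical copies share reads, so their values are not independent of each other. Mup20 itself ranged 1.61-fold.

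**Figure D2:**
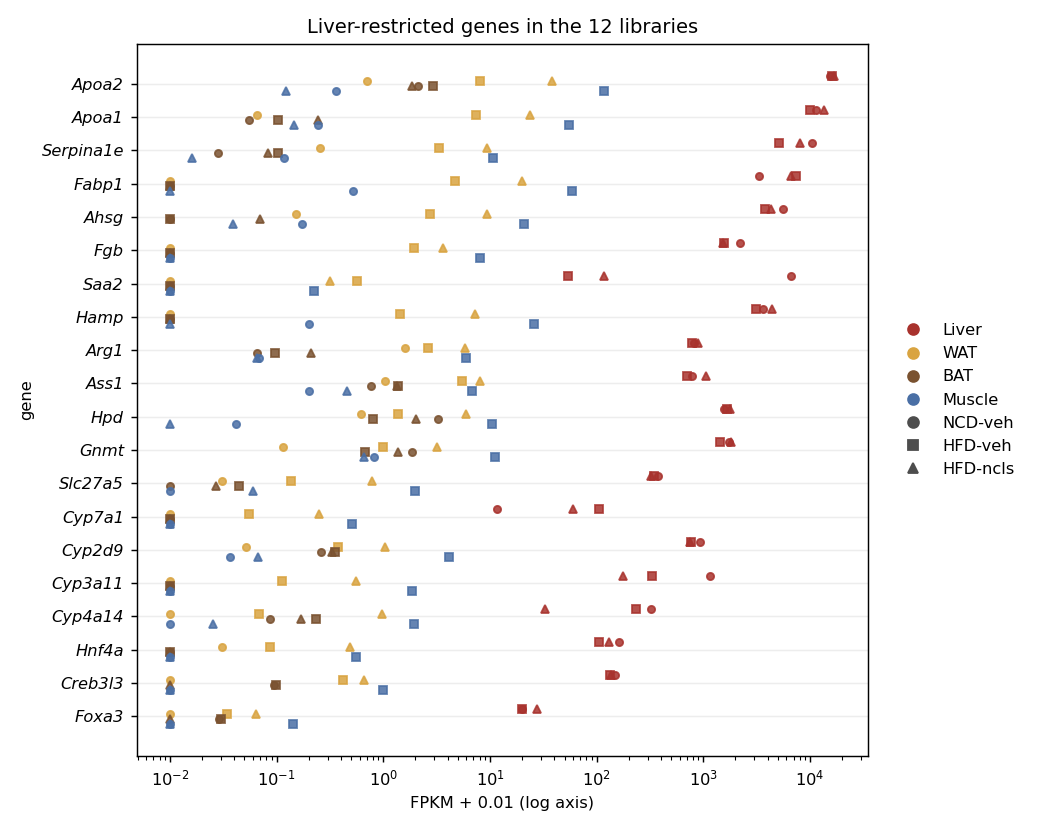
FPKM plus 0.01 (log axis) of 20 liver-restricted genes in the 12 libraries, coloured by organ and shaped by feeding group, 1 point per library, with points at the left edge listed at 0. Every gene's 3 liver values lie to the right of its 9 others, the HFD-veh muscle and HFD-ncls WAT points lead the others in most rows, and Saa2, Cyp7a1, Cyp3a11 and Cyp4a14 are spread widest within liver.

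Acute-phase genes, which the liver induces in inflammation, were the least steady of the plasma protein genes, with a median of 4.07-fold between the highest and lowest liver library. 9 of 14 were higher in liver than in all 3 organs and 7 were restricted, but 11 of 14 were over 2-fold lower in HFD-veh than in NCD-veh liver, against 2.27% of all genes compared. Without the HFD-veh library, 11 were over 2-fold lower in HFD-ncls than in NCD-veh liver, against 2.62%. The list's share of FPKM was 5.41%, 1.29% and 1.61%. Saa2, a serum amyloid A gene, stood at 6590.1 FPKM (NCD-veh), 53.7 (HFD-veh) and 118 (HFD-ncls) and read 0, 0.555 and 0.305 in WAT, 0, 0 and 0 in BAT and 0, 0.216 and 0 in muscle. NCD-veh liver was thus 123-fold above HFD-veh liver, while the lowest liver library still lay above all 9 other libraries. The difference of the organ means to WAT was 10.18 ± 1.42 (SE, limma, adjusted p = 3.4e-05). Saa1 was at 7071, 132 and 299 FPKM and Lcn2, a lipocalin that binds bacterial iron carriers, at 681, 10.2 and 11.6, and both were high in NCD-veh liver alone. Lcn2 did not pass the test against WAT, at 2.15 ± 1.30 (limma, adjusted p = 0.15). Hp, encoding the hemoglobin scavenger haptoglobin, was at 4311, 1601 and 1868 in liver and 1465, 1707 and 2272 in WAT, a difference of 0.39 ± 0.58 (adjusted p = 0.54). Lbp, which binds bacterial lipopolysaccharide, was lower in liver than in WAT, a difference of -2.32 ± 0.48 (adjusted p = 0.00076). Plasma genes outside this list also stood higher in NCD-veh liver, among them Hpx, the heme scavenger hemopexin, at 6697, 1915 and 2381 FPKM, Itih3 at 784, 262 and 328 and Itih4 at 1486, 573 and 667. Kupffer cell markers had their highest sum in NCD-veh liver too, 117, 73.8 and 55.7 FPKM, and their part in the acute-phase levels was not tested. These are levels in 1 library of each group, so differences between mice and between diets cannot be told apart.

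Hamp, the gene of the iron hormone hepcidin, is also induced in inflammation but did not share this pattern. It stood at 3601 FPKM (NCD-veh), 3110.3 (HFD-veh) and 4409.9 (HFD-ncls) and was listed at 0 in all 3 BAT libraries, while muscle read 0.193, 25.8 and 0 and WAT 0, 1.42 and 7.28. Its difference to WAT was 11.79 ± 1.83 (SE, limma, adjusted p = 8.4e-05) and 13.20 over 10 libraries.

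The urea cycle was complete and restricted to liver as a whole. All 8 genes, the enzymes, their activator synthase Nags and 2 mitochondrial carriers, were higher in liver than in all 3 organs and all were restricted. Cps1, which fixes ammonia into carbamoyl phosphate at the entry of the cycle, stood at 417 FPKM (NCD-veh), 470.4 (HFD-veh) and 347 (HFD-ncls), and its 9 other values ran from 0 through a median of 0 to 1.56 FPKM. Ass1, the argininosuccinate synthetase gene, was at 790.5, 696 and 1069.7 FPKM, and Arg1, the arginase that releases urea, at 818, 788 and 883. Arg1 read 1.58, 2.62 and 5.79 in WAT, 0.0551, 0.0863 and 0.202 in BAT and 0.0578, 5.92 and 0.0559 in muscle, which gave a difference to WAT of 8.11 ± 1.11 (SE, limma, adjusted p = 3e-05). The mitochondrial ornithine carrier Slc25a15 was the nearest to the other organs, at 75.6, 60.8 and 70.7 FPKM in liver against 2.16 to 3.58 elsewhere, 4.40 ± 0.12 above muscle (adjusted p = 1.2e-10). None of the 8 genes differed over 2-fold between any liver libraries, and their medians were -0.12 for HFD-veh over NCD-veh and 0.13 for HFD-ncls over HFD-veh.

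Amino acid breakdown showed the same selectivity, with 29 of 31 genes above all 3 organs and 27 restricted. Gnmt, the glycine methyltransferase that disposes of excess methyl groups, was at 1755, 1431 and 1825 FPKM and Hpd, of tyrosine breakdown, at 1547, 1672 and 1765, each 9.73 ± 1.06 and 9.81 ± 1.45 above its nearest organ (SE, limma, adjusted p = 5e-06 and 9.1e-05). Only Hal, the histidine ammonia-lyase, was over 2-fold apart between HFD-veh and NCD-veh liver, at 158, 66.9 and 66.7 FPKM. Sds, a serine dehydratase used when amino acids feed glucose synthesis, came close to that size with narciclasine at 152, 118 and 235, 1.98-fold above the HFD-veh level in HFD-ncls liver.

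Bile acid synthesis and transport was represented by 20 of 22 tested genes higher in liver than in all 3 organs, 14 of them restricted. Slc10a1, the sodium-coupled uptake carrier for bile acids, stood at 306, 465 and 419.6 FPKM and Slc27a5, which activates bile acids for conjugation, at 375, 344 and 324. Cyp7a1, the rate-limiting enzyme of the classical pathway, was as selective but less steady. It stood at 11.5 FPKM (NCD-veh), 105 (HFD-veh) and 60.5 (HFD-ncls), 9.07-fold higher in HFD-veh than in NCD-veh liver, the highest such fold among restricted genes. In the other organs Cyp7a1 read 0, 0.0454 and 0.237 in WAT, 0, 0 and 0 in BAT and 0, 0.503 and 0 in muscle, and its difference to muscle was 7.85 ± 0.84 (SE, limma, adjusted p = 4.5e-06).

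In glucose, fructose and glycogen metabolism 13 of 17 genes were above all 3 organs and 10 were restricted. Pklr, the liver pyruvate kinase, which ends glycolysis, stood at 27.4 FPKM (NCD-veh), 119 (HFD-veh) and 159 (HFD-ncls), 4.32-fold higher in HFD-veh than in NCD-veh liver, and 8.41 ± 1.00 above muscle (SE, limma, adjusted p = 1.1e-05). Slc2a2, the hepatocyte glucose transporter, was at 61, 133 and 100.02. Pck1, which starts glucose synthesis from oxaloacetate, was not liver-restricted, at 1048, 850.3 and 798 FPKM in liver and 605, 684 and 694 in BAT, a difference of 0.44 ± 0.58 (adjusted p = 0.52). Ppp1r3c, a glycogen-targeting subunit of protein phosphatase, was at 40.1, 7.46 and 5.24 FPKM, highest in NCD-veh liver, and lower in liver than in muscle (89.9, 153 and 47.7), a difference of -2.89 ± 0.68 (adjusted p = 0.0023). In all, 4 of 17 genes of this list were over 2-fold higher in HFD-veh than in NCD-veh liver and 5 were so in HFD-ncls liver, against 2.85% and 2.58% of all genes. Only 1, Ppp1r3c, was over 2-fold lower in each of these comparisons, against 2.27% and 2.62%.

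Cytochrome P450 genes, which oxidize drugs, steroids and fatty acids, were mostly liver genes but not a uniform block. 46 of 53 tested genes were higher in liver than in all 3 organs, and 34 of 39 expressed ones were restricted. Cyp2e1, the ethanol-oxidizing form, had the highest level at 3762, 4779 and 3619.7 FPKM but was also at 1053, 438 and 409 in WAT, so it was not restricted, with 2.81 ± 0.61 over WAT (SE, limma, adjusted p = 0.0012). Cyp2d9 followed at 921, 763 and 749.6 and was 10.85 ± 1.12 above muscle (adjusted p = 3e-06). Cyp2b10, whose product oxidizes drugs, went the other way, at 0.697, 1.17 and 0.182 FPKM in liver against 15.5, 12.8 and 17.4 in BAT.

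Between the liver libraries the subfamilies differed. All 6 tested Cyp3a genes were lower in HFD-veh than in NCD-veh liver and lower again in HFD-ncls, with a summed level of 1669, 602 and 357 FPKM. Cyp3a11, the main drug-oxidizing form, accounted for most of this at 1165 FPKM (NCD-veh), 330.1 (HFD-veh) and 177 (HFD-ncls). The Cyp4a genes, which hydroxylate fatty acids and include targets of PPARα, summed to 1023, 702 and 285 FPKM. In HFD-ncls liver 4 of 6 stood below their HFD-veh level, with Cyp4a12a and Cyp4a12b above it. Cyp4a14 was at 326 FPKM (NCD-veh), 233 (HFD-veh) and 32.6 (HFD-ncls), 7.14-fold lower with narciclasine than with vehicle on the same diet, and Cyp4a10 at 438, 277 and 80.8 was 3.43-fold lower. Cyp2b9 was near 0 outside HFD-veh liver, at 0.0525 FPKM (NCD-veh), 27 (HFD-veh) and 0.403 (HFD-ncls), and therefore did not count as expressed. In all, 8 of 51 P450 genes were over 2-fold below HFD-veh in the HFD-ncls liver and 0 over 2-fold above it, against 1.3% and 1.01% of all genes compared. Only 3 of these 8 reached 10 FPKM in every liver library. The Cyp2d genes summed to 1949.6, 1799 and 1729 FPKM and the Cyp2c genes to 1811, 1765 and 1369, a narrower span than Cyp3a and Cyp4a.

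Conjugating and other drug-metabolizing enzymes were widely expressed and less selective. 52 of 64 were higher in liver than in all 3 organs, and 26 of 52 expressed genes were restricted. Gstp1, a glutathione transferase, was restricted by a narrow margin, at 2005, 1121 and 1644 FPKM in liver against 63.3 to 139 elsewhere, 3.61 ± 0.19 above muscle (SE, limma, adjusted p = 7.9e-09). Gstm1, another glutathione transferase, was not restricted, at 1166, 792 and 778 FPKM in liver and 414, 461 and 385 in WAT. Ces1c, a carboxylesterase secreted into mouse plasma, was at 1100.5, 1073 and 970.1 FPKM and 10.62 ± 1.36 above WAT (adjusted p = 1.6e-05). All 52 expressed genes of this list stayed within 2-fold over the 3 livers.

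Fatty acid metabolism and cholesterol synthesis had the lowest medians of the function lists, with differences to the nearest organ of 1.45 and 1.47. In the fatty acid and ketone body list 16 of 30 genes were higher in liver than in all 3 organs, 9 were lower than in WAT and 7 were restricted. Fasn, fatty acid synthase, stood at 11.3 FPKM (NCD-veh), 65.2 (HFD-veh) and 162 (HFD-ncls) but at 453, 432 and 412 in WAT and 705, 348 and 171 in BAT, a difference to WAT of -3.13 ± 0.79 (SE, limma, adjusted p = 0.003). Scd1, the stearoyl-CoA desaturase, was lower in liver than in WAT as well, at 561, 1271 and 1333 against 6275, 4356 and 3929.9 FPKM. The restricted members did not include the core enzymes of synthesis. Among them were Elovl2, Bdh1, Acaa1b, Acot12 and Cyp4a14. Fabp1, the liver fatty acid binding protein, was restricted too, at 3339 FPKM (NCD-veh), 7341 (HFD-veh) and 6690.4 (HFD-ncls). Fabp1 was listed at 0 in all BAT libraries and read 0, 4.69 and 19.9 in WAT and 0.511, 58.4 and 0 in muscle, 11.33 ± 2.15 from WAT (adjusted p = 0.0004) and 12.95 without the 2 libraries named above. 11 of 28 genes of the list were over 2-fold higher in HFD-veh than in NCD-veh liver and 0 lower, against 2.85% and 2.27% of all genes, and 8 were over 2-fold higher and 1, Cyp4a14, over 2-fold lower in HFD-ncls than in NCD-veh liver, against 2.58% and 2.62%. Cidec, one of them, is also an adipocyte marker, and the adipocyte marker sum was highest in HFD-veh liver too. Its part in the result was not tested.

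Cholesterol synthesis genes also stood higher in both high-fat diet livers and were not liver-restricted as a group. 10 of 19 genes were above all 3 organs, but 1 was restricted. 15 of 19 genes were over 2-fold higher in HFD-veh than in NCD-veh liver, with a median of 1.26 on the log2 scale, and 15 were so in HFD-ncls liver, against 2.85% and 2.58% of all genes compared. Fdps, farnesyl diphosphate synthase, stood at 30.2 FPKM (NCD-veh), 136 (HFD-veh) and 199.6 (HFD-ncls). The HFD-ncls values were near or above those of HFD-veh, with a list median of 0.38.

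Of the secreted hormones, growth factors and their receptors, 16 of 22 were higher in liver than in all 3 organs and 7 were restricted. Sepp1, the selenium carrier of plasma, had the highest level at 2600.2, 2967 and 2198 FPKM, with 995, 736 and 803 in WAT, and differed from WAT by 1.62 ± 0.18 (SE, limma, adjusted p = 4.2e-06). Igfbp1, a binding protein of insulin-like growth factors, was restricted and varied most, at 30.7 FPKM (NCD-veh), 72.7 (HFD-veh) and 162 (HFD-ncls). Prlr, the prolactin receptor, was lower with narciclasine at 33.4, 37.2 and 16.

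The listed liver transcription regulators had the liver pattern at lower levels, which the choice of the list favours. 22 of 30 of the list were higher in liver than in all 3 organs and 8 were both expressed and restricted, namely Hnf4a, Foxa3, Onecut2, Nr1h4, Nr1i2, Nr1i3, Nr0b2 and Creb3l3. Hnf4a, a central regulator of hepatocyte genes, stood at 162 FPKM (NCD-veh), 105 (HFD-veh) and 131 (HFD-ncls). It read 0.0211, 0.0759 and 0.477 in WAT, 0, 0 and 0 in BAT and 0, 0.54 and 0 in muscle, a difference to WAT of 9.14 ± 0.69 (SE, limma, adjusted p = 1.9e-07) and 9.80 over 10 libraries. Creb3l3, a factor of fasting lipid metabolism, was at 148, 134 and 137 FPKM, Nr1i3, the xenobiotic receptor CAR, at 123, 115 and 85.7, and Nr1h4, the bile acid receptor FXR, at 56.1, 68.5 and 63.6. Foxa2 at 9.55, 7.55 and 13.3, Onecut1 at 2.75, 4.66 and 10.5 and Gata4 at 4.07, 3.85 and 5.42 FPKM did not reach the expression limit in every liver library. All 3 lay over 10-fold above each organ, Foxa2 being at 0 to 0.0911 FPKM in the others, and stayed outside the restricted set by their level alone.

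Regulators known from both liver and fat stood closer to the other organs. Cebpa was at 102, 98.5 and 121 FPKM in liver, 249, 207 and 229 in WAT and 118, 112 and 113 in BAT, lower in liver than in WAT, a difference of -1.09 ± 0.20 (SE, limma, adjusted p = 0.00026). Under median ratio rescaling that difference was -0.30 (adjusted p = 0.19). Ppara at 34.3, 52.4 and 36.9 in liver and 35.2, 45.1 and 41.7 in BAT differed by 0.0017 ± 0.17 (adjusted p = 1), and Nr1h3, encoding LXRα, at 41.7, 44.8 and 51.9 in liver and 37.3, 51.1 and 51.4 in WAT by -0.0058 ± 0.14 (adjusted p = 0.97). After median ratio rescaling Nr1h3 was higher in liver than in WAT, by 0.78 (adjusted p = 0.00028). Srebf1, the lipogenic factor SREBP-1, was at 13.3 FPKM (NCD-veh), 69.9 (HFD-veh) and 95 (HFD-ncls), 5.22-fold higher in HFD-veh than in NCD-veh liver and with the widest span of the list. Nr0b2, which represses Cyp7a1 on bile acid signals, ran 54.6, 35.8 and 22.6 over the 3 livers, and Prox1, a factor of hepatocyte development, 8.55, 10.2 and 3.22.

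Both zones of the liver lobule were represented. Of the periportal list 10 of 12 genes, and of the pericentral list 13 of 15 genes, were higher in liver than in all 3 organs, with 9 and 6 restricted. Medians over HFD-veh and NCD-veh liver were -0.29 and 0.32 on the log2 scale, and over HFD-ncls and HFD-veh liver 0.11 and -0.26. Rgn, a pericentral calcium-binding protein, stood at 343, 550.1 and 428 FPKM.

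Few genes of the other liver cells reached 10 FPKM in every liver library, which restriction requires. 2 of 9 Kupffer cell, 1 of 9 sinusoidal and 3 of 8 stellate cell markers did so, and 3, 3 and 3 were higher in liver than in all 3 organs. Of the Kupffer cell list 1 of 9 tested genes was restricted, Clec4f, a lectin of these macrophages, at 22.9, 16.3 and 12.2 FPKM in liver and 0 to 0.207 elsewhere. Of the sinusoidal list 1 of 9, Clec4g, was restricted at 23.8, 25.2 and 19.5, and of the stellate cell list 1 of 8, Colec11, a plasma collectin. Bile duct, red blood cell, lymphocyte, adipocyte and muscle marker lists held none, and summed levels over the 3 livers were 32, 25.7 and 26.2 FPKM for bile duct, 314, 177 and 219 for red blood cells and 1.76, 2.21 and 2.1 for lymphocytes. In bulk tissue fewer cells of a type and less RNA per cell cannot be told apart. Housekeeping genes, taken as a contrast, held 0 restricted genes of 14, and 1 of 14 was higher in liver than in all 3 organs.

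**Figure D3:**
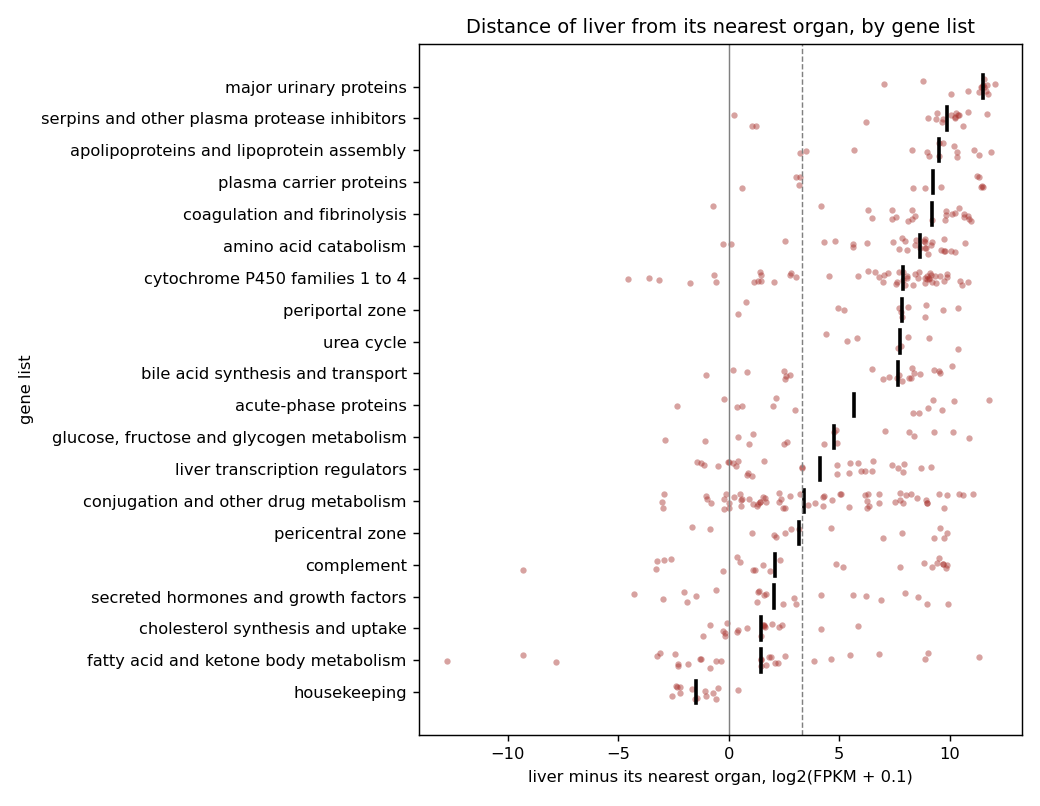
Difference in mean log2(FPKM + 0.1) between liver and its nearest organ, 1 point per tested gene, for the 20 gene lists ordered by their median (black bar), with a dashed line at 10-fold. Medians run from 11.50 for the major urinary proteins to -1.49 for housekeeping genes, beside -1.31 over all 13648 tested genes.

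The liver program was steady over diet and treatment in most of its genes, with a wider spread than in other expressed genes. The median restricted gene differed 1.36-fold between its highest and lowest liver library, and the median other expressed gene 1.25-fold. 403 of 450 restricted genes (89.6%) stayed within 2-fold, against 96.4% of 2828 others. At 100 FPKM or more in the mean of the 3 livers these medians were 1.32-fold and 1.25-fold. The rule of 10 FPKM in every liver library removes genes that were low in 1 of them, which narrows these ranges.

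Between HFD-veh and NCD-veh liver 18 restricted genes were over 2-fold higher and 16 over 2-fold lower, 4% and 3.56% beside 2.85% and 2.27% of 10009 genes compared, which include genes down to 1 FPKM. Over the other expressed genes, under the same FPKM minimum as the restricted ones, the shares were 1.34% and 1.27%. Restricted genes were more often at a high level, and among genes averaging 100 FPKM or more in liver the contrast was smaller. There the shares were 3.07% and 4.39% of 228 restricted genes and 2.37% and 3.68% of 380 others. Genes were compared where at least 1 of the 2 libraries reached 1 FPKM. Among the largest folds upward, beside that of Cyp7a1, were those of Upp2, a uridine phosphorylase, at 41.8, 189 and 135 FPKM, Pklr and Fads2, the Δ6 desaturase of polyunsaturated fatty acids, at 122, 518 and 601. The largest folds downward belonged to Saa2, Saa1, Apcs, the serum amyloid P component, at 203, 44.9 and 52.2, Fgl1, a fibrinogen-like liver protein, at 566, 155 and 175, and Cyp3a11. Comparing HFD-ncls with NCD-veh liver, which leaves out the library with muscle transcripts, 17 restricted genes were over 2-fold higher and 18 lower, beside 2.58% and 2.62% of 9953 genes. The part of the muscle transcripts in the first comparison was not tested otherwise.

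Between HFD-ncls and HFD-veh liver 5 restricted genes were over 2-fold higher and 6 over 2-fold lower, 1.11% and 1.33% beside 1.01% and 1.3% of 9949 genes. Over the other expressed genes, under the same FPKM minimum, the shares were 0.177% and 0.248%. Among genes averaging 100 FPKM or more in liver they were 0.877% and 1.32% of 228 restricted genes and 0% and 0.263% of 380 others. The diet and treatment comparisons use the same HFD-veh library, so they are not independent. The pseudogene Serpina4-ps1 stood highest with narciclasine at 13.5 FPKM (NCD-veh), 33.8 (HFD-veh) and 235 (HFD-ncls), followed by Plk3, a stress-responsive kinase, at 15.4, 19.3 and 56.1, Saa1, Igfbp1 and Saa2. The lower genes were led by Cyp4a14, Cyp4a10, A1cf, the cofactor of Apob messenger RNA editing, at 18.2, 30.3 and 10.1, Cyp4a32 and Apob. At the other end Apol9b, Igsf5, Cml1, Apol9a and Kcnn2 were the steadiest restricted genes, with Apol9b at 68.4 FPKM (NCD-veh), 68.9 (HFD-veh) and 69 (HFD-ncls) and 0.0688 to 2.49 in the 9 other libraries.

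**Figure D4:**
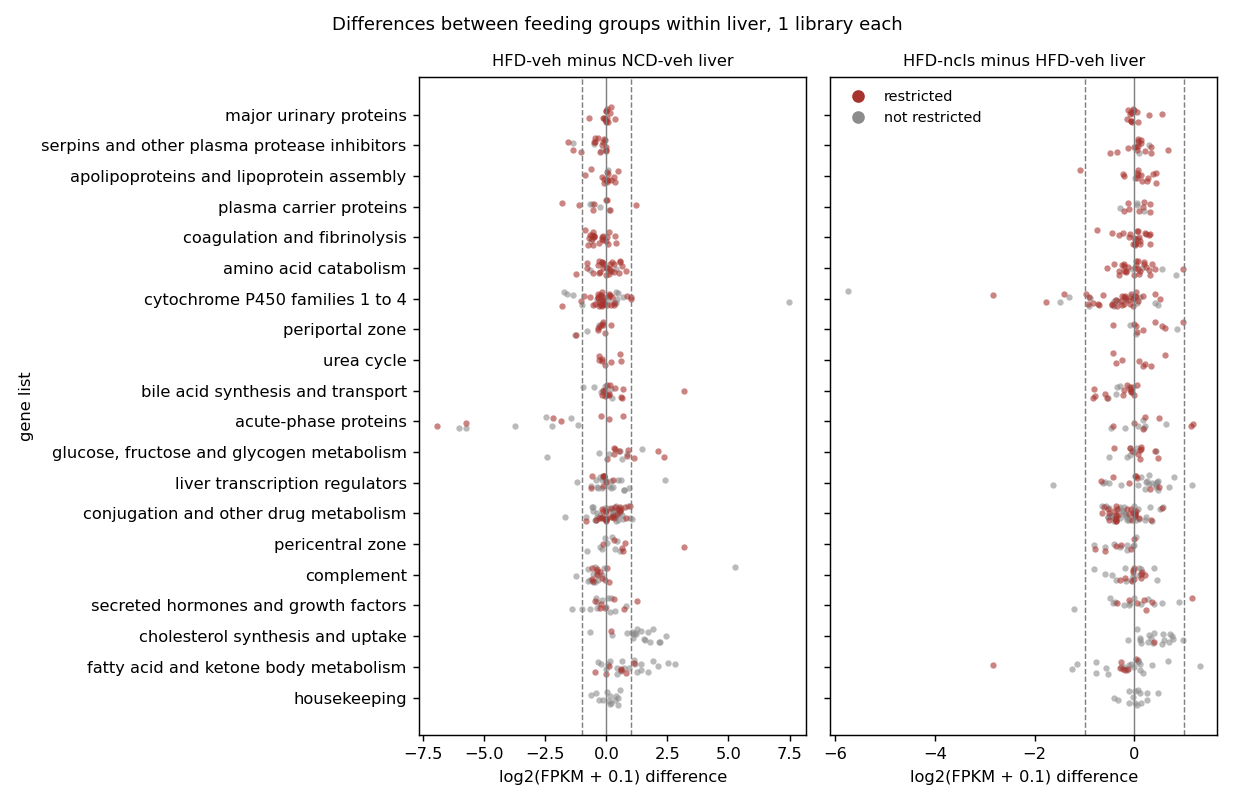
Differences in log2(FPKM + 0.1) within liver for HFD-veh minus NCD-veh (left) and HFD-ncls minus HFD-veh (right), 1 point per gene averaging 1 FPKM or more in liver, by gene list, restricted genes in red, with dashed lines at 2-fold and each point 1 library against 1. Acute-phase genes lie furthest to the left and cholesterol and fatty acid genes to the right in the diet comparison, while in the treatment comparison most lists lie between the dashed lines.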

How the data were processed

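The authors sequenced RNA of WAT, BAT, liver and quadriceps muscle in 3 feeding groups, 1 library each, and deposited 1 table of FPKM values, made per their methods and the submitters' processing notes with TopHat and Cufflinks on mm9 and RefSeq genes. FPKM is scaled for gene length and library size. No further scaling between libraries was stated, and these values are not counts, so no count model was used. All 12 columns were matched to samples by their titles. 86 symbols without a value in at least 1 library were left out of tests.

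Liver was compared with each organ by limma 3.58.1 in R 4.3.3 (empirical Bayes with trend) on log2(FPKM + 0.1), over 13648 genes with at least 1 FPKM in at least 1 library, with Benjamini-Hochberg adjustment and a threshold of 0.05. The fit was tested on simulated data. The pseudocount of 0.1 understates the change of low genes. Restricted genes were expressed genes at least 10-fold above the mean of each organ. The members and gene lists were chosen with earlier results of these data known. Named genes were the 10 highest in liver, the 10 with the largest difference, all listed regulators, the 2 highest and 2 widest-ranging of each list, the 5 restricted genes with the largest folds each way in each comparison within liver, the 5 steadiest and those nearest the limits, with further list genes given as examples and chosen after their values were seen. A few genes that this rule names are not reported here. Alternatives were other pseudocounts, filters, limits and rescaling, a block for feeding group, and libraries left out.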

Additional observations from a re-analysis of the deposited data

How the results depend on the processing

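Median ratio rescaling raised the genes higher in liver than in WAT from 2212 to 4236, and gave 4102 genes higher in liver than in BAT and 5215 genes higher in liver than in Muscle. Without any filter the 3 counts were 2510, 4277 and 5910, with a minimum of 5 FPKM 1874, 3293 and 4342, and with the feeding group as a replicate block 2210, 3952 and 5455. Leaving out each library in turn gave 2099 to 2228 for WAT, 3654 to 4083 for BAT and 5178 to 5588 for muscle. Expressed genes numbered 9194 at 1 FPKM and 958 at 50 FPKM. Restricted genes numbered 567 at 5-fold and 403 at 20-fold, where they held 49.0%, 45.9% and 46.5% of FPKM in the 3 livers, and 446 to 474 without any single library. Restricted genes over 2-fold apart between HFD-veh and NCD-veh liver rose from 34 to 53 when the mean rather than every liver library had to reach 10 FPKM and to 142 at 1.4-fold, and those between HFD-ncls and HFD-veh from 11 to 17 and 60. Leaving out the acute-phase list, a choice made after seeing the data, left 30 of the 34 between HFD-veh and NCD-veh liver.

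Feeding groups served as the replicate numbers, so the block pairs libraries of 1 group, and it moved no count by over 1.5 times. Of 109 named genes, 98 kept their call against the nearest organ under all alternatives run, including all 71 restricted ones. The restricted genes were chosen for standing at least 10-fold above each organ, so their kept calls are a description only. The sign turned for 4 genes that did not pass the test against their nearest organ as deposited. Nr1h3 against WAT was 0.78 after rescaling, which passed (limma, adjusted p = 0.00028), 0.072 without HFD-veh muscle and HFD-ncls WAT and -0.16 to 0.072 without single libraries. Srebf1 against WAT was 0.29 after rescaling and -1.05 to 0.37 without single libraries, passing without NCD-veh liver at 0.37 (limma, adjusted p = 0.018). The corresponding ranges were -0.18 to 0.12 for Ppara against BAT and -0.046 to 0.67 for Hp against WAT. The cause was not tested. Lcn2 against WAT passed the threshold without HFD-veh liver, at 3.19 (limma, adjusted p = 0.049), and not without any other library. With 1 library per organ and feeding group no difference within liver has a replicate check.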
